A study of Mus musculus with 8 samples.

Results

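The potassium channel genes described here were the protein-coding genes of mouse chromosomes 1 to 19 whose symbol begins with Kcn in the GENCODE vM1 annotation of the mm9 genome. There were 94 such gene records among 21418 protein-coding genes. They carried 92 different symbols, because Kcnb2 and Kcnh8 each had a second, separate gene record. Each record was examined for peaks of huntingtin (HTT) chromatin immunoprecipitation sequencing (ChIP-seq). Peaks within 1 kb of the annotated start site, taken as the outermost 5′ end of the record, were counted first. Those in the rest of the gene body were counted apart from these.

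The study mapped where HTT, the protein whose lengthened glutamine tract causes Huntington's disease, is found along the DNA of the mouse cortex. Genotype and treatment were crossed, and each of the 4 groups held 1 ChIP library with its own peak list. All animals were male B6 mice, injected or left alone at 4 months of age and taken 4 weeks later. The Htt+/+ mice carried 2 unaltered copies of Htt, and the HttQ111/+ mice carried 1 unaltered copy and 1 knock-in copy in which human exon 1 with an expanded CAG tract replaces the mouse exon. The treated mice received 500 µg of an antisense oligonucleotide (ASO) against both forms of Htt into 1 cerebral ventricle, and cortex of the injected side was used. Untreated mice had no injection, so injection and ASO cannot be told apart, and the oligonucleotide lowers all HTT rather than the altered protein alone. The labels state a pool of 3 mice for each ChIP preparation and the methods a smaller one, and the number is therefore not certain. Another 4 of the 8 samples were inputs whose own data were not analysed here. The peak lists hold no measure of HTT level, so they give no check of the knockdown. With 1 library per group no difference between groups has a replicate check, and no p-value is given.

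Potassium channels let potassium leave the cell and so set the resting potential, shape the action potential and limit repetitive firing. Most are built around pore-forming subunits. Some of these open with voltage (Kcna, Kcnb, Kcnc, Kcnd, Kcnq and Kcnh) or with calcium or sodium inside the cell (Kcnma, Kcnn and Kcnt). Others pass current at rest as inward rectifiers (Kcnj) or two-pore-domain leak channels (Kcnk). Kcnu was counted in the calcium- and sodium-activated class by symbol alone. The modifier or "silent" subunits (Kcnf, Kcng, Kcns and Kcnv) form no working channel alone but join Shab-type Kcnb subunits and change their gating, and auxiliary subunits (Kcnab, Kcne, Kcnip and Kcnmb) attach to pores and alter their traffic and kinetics.

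Across the libraries the lists ran from 40505 to 47957 peaks, and most peaks were thin: 2 to 4 reads lay under the summit of 79.6% to 87.3% of them, as recovered from the deposited fold enrichment and p-value. Fold enrichment is the height of the ChIP pileup at the summit over the local background. By the study's methods that background came from the merged inputs, which the peak lists themselves do not show.

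At start sites the Kcn genes with a peak numbered 13 in untreated Htt+/+, 25 in ASO-treated Htt+/+, 28 in untreated HttQ111/+ and 3 in ASO-treated HttQ111/+. As shares of the 94 records these were 13.8%, 26.6%, 29.8% and 3.19%, where all protein-coding genes gave 12.9%, 16.3%, 18.5% and 4.0%. ASO-treated Htt+/+ and untreated HttQ111/+ were therefore the libraries with the most Kcn start-site peaks, and ASO-treated HttQ111/+ was nearly empty for Kcn genes and low for all genes. Kcn genes are long, with a median of 28889 bp against 15509 bp for other genes, so the share among other genes was averaged over length classes with the Kcn genes' weights. That length-standardised share was 14.2%, 18.3%, 20.2% and 3.66% in the same order. The 95% Wilson intervals of the Kcn shares, which cover counting error only, were 8.26% to 22.2%, 18.7% to 36.3%, 21.5% to 39.7% and 1.09% to 8.97%, so the Kcn share lay above the length-standardised value by more than counting error in ASO-treated Htt+/+ and untreated HttQ111/+. When GC content of the 2 kb around the start site was also taken into account, the share among other genes rose to 16.6%, 21.9%, 24.4% and 3.997%, and all 4 values lay inside the Kcn intervals.

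**Figure D1:**
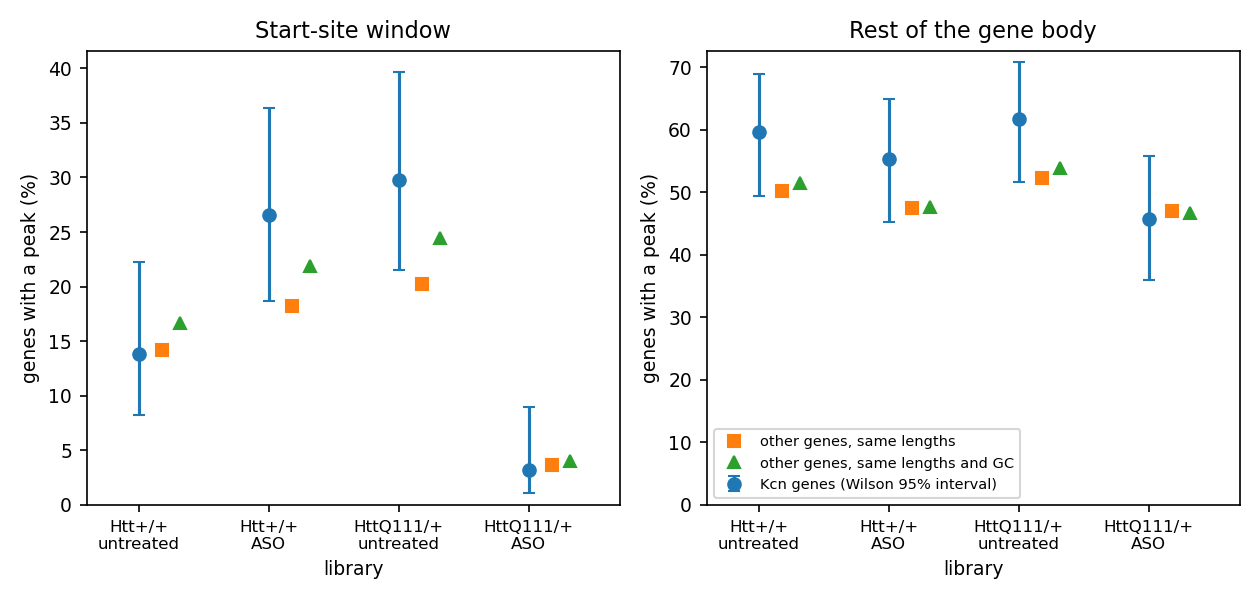
Percentage of Kcn genes with a peak in each library (circles, Wilson 95% interval), in the start-site window at left and in the rest of the gene body at right, with other protein-coding genes averaged over the same lengths (squares) and over the same lengths and GC content (triangles). At start sites the Kcn share was 26.6% in ASO-treated Htt+/+ and 29.8% in untreated HttQ111/+, and 3.19% in ASO-treated HttQ111/+.

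A start-site peak in 2 or more libraries was found for 22 Kcn genes (23.4%, Wilson 95% interval 15.99% to 32.9%), where 12.8% of all protein-coding genes had one and the length-standardised share of other genes was 14.4%. The Kcn share was 1.63 times the length-standardised share (interval 1.11 to 2.29, counting error only). With GC content included the ratio was 1.30 and the interval, 0.891 to 1.83, included 1. A start-site peak in 3 or more libraries was found for 7 Kcn genes (7.45%, Wilson 95% interval 3.65% to 14.6%). The share of all genes, 4.24%, and the length-standardised share, 4.54%, lay inside that interval. Of the 22 genes, 20 had a peak in ASO-treated Htt+/+, 18 in untreated HttQ111/+, 12 in untreated Htt+/+ and 2 in ASO-treated HttQ111/+. The count rested on the first 2 of these: it was 9 without the ASO-treated Htt+/+ library and 11 without the untreated HttQ111/+ library.

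The 22 genes were spread unevenly over the classes of channel. Among the 10 modifier subunits, 6 had a start-site peak in 2 or more libraries, where 1.16 were expected from other genes of the same lengths and 1.92 from other genes of the same lengths and GC content. Among the 14 two-pore leak channels there were 5, with 1.93 and 2.36 expected, and among the 31 voltage-gated pore subunits there were 9, with 4.78 and 7.05 expected. The 15 inward rectifiers held 2, with 2.03 and 2.05 expected. None of the 16 auxiliary subunits (2.32 and 2.19 expected) and none of the 8 calcium- and sodium-activated pore subunits (1.29 and 1.30 expected) had a start-site peak in 2 or more libraries, and the Wilson intervals of these empty classes reached 19.4% and 32.4%. The interval of the modifier subunits, 31.3% to 83.2%, lay above both expected shares. That count leaned on 1 library, as all 6 genes had a peak in ASO-treated Htt+/+. Without that library Kcns2, Kcns3, Kcnv1 and Kcnv2 no longer had a start-site peak in 2 or more libraries. The class values are counts of a few genes in classes set by symbol, and no class was tested against another. They use 1 start per gene, its outermost annotated 5′ end, and were not recounted with the starts of all transcripts.

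**Figure D2:**
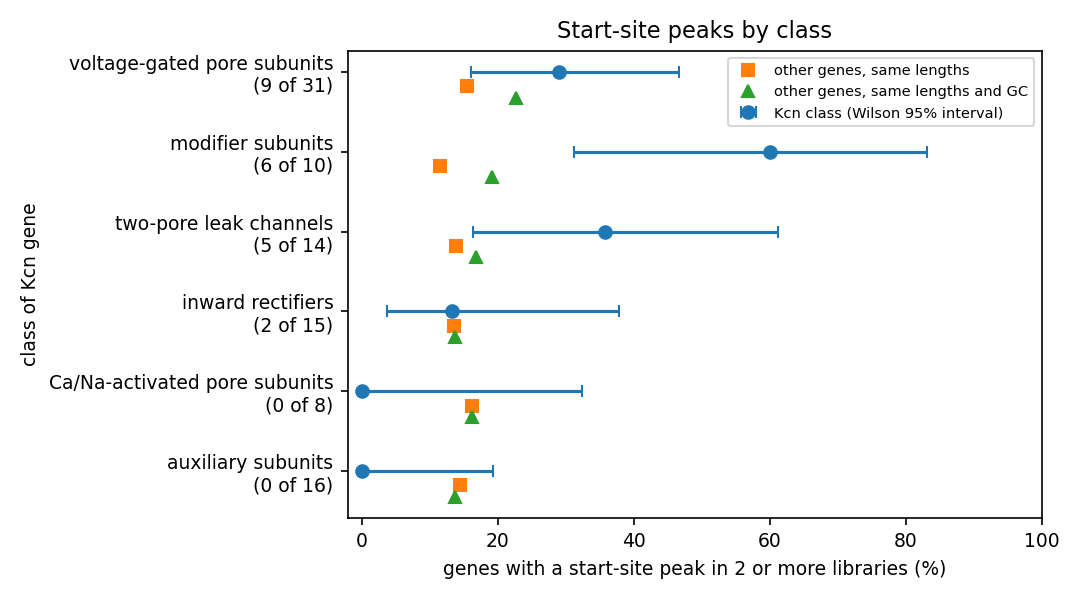
Percentage of the genes of each Kcn class with a start-site peak in 2 or more libraries (circles, Wilson 95% interval), with the share expected from other genes of the same lengths (squares) and of the same lengths and GC content (triangles). Modifier subunits (6 of 10) stand highest, and the calcium- and sodium-activated pore subunits (0 of 8) and auxiliary subunits (0 of 16) are at 0.

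Within the voltage-gated class the Shaw-type genes give the fast channels of rapidly firing interneurons. Kcnc4, one of them, was the only Kcn gene with a start-site peak in all 4 libraries, at fold enrichments of 4.56 in untreated Htt+/+, 4.51 in ASO-treated Htt+/+, 4.02 in untreated HttQ111/+ and 2.97 in ASO-treated HttQ111/+. These peaks formed a pair of separate regions: those of untreated Htt+/+ and ASO-treated HttQ111/+ met at chr3:107262506-107262823, centred at −848 bp from the start site, and those of the other two libraries met at chr3:107261101-107261379, in a coding exon at 576 bp. Kcnc1, of the same type, had start-site peaks in Htt+/+ alone, untreated at 2.95 and with ASO at 2.25, and was among the lowest of the 22 genes. Kcnc2 had no start-site peak.

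Kcnq5, whose channels carry the M current that dampens excitability, and Kcnq1, a channel of heart and epithelia, had start-site peaks in ASO-treated Htt+/+ and untreated HttQ111/+ and in no other library. The fold enrichments in these libraries were 3.64 and 2.60 at Kcnq5, and 2.07 and 4.14 at Kcnq1. The same pair of libraries held the peaks of Kcnh3, an EAG-related channel of the forebrain. Its untreated HttQ111/+ peak, at 4.02, overlapped an ASO-treated Htt+/+ peak at 3.84. The higher ASO-treated Htt+/+ peak, at 5.92, lay apart from these. At Kcnd3, a Shal-type channel that carries fast-inactivating A-type current, the peaks of 3 libraries formed a region centred on an untranslated exon, at fold enrichments of 5.68 in untreated Htt+/+, 4.63 in ASO-treated Htt+/+ and 3.40 in untreated HttQ111/+. Kcna3, a Shaker-type gene with no introns, had peaks in both untreated libraries, at 3.35 in Htt+/+ and 5.27 in HttQ111/+.

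Among the modifier subunits, Kcng3 had the highest start-site enrichments of its class, 8.32 in untreated Htt+/+ and 8.43 in ASO-treated Htt+/+, both over a coding exon 811 bp into the gene. Its untreated HttQ111/+ peak, at 5.33, lay apart from these, at −129 bp from the start site. Kcng2 had peaks at 5.90 in untreated Htt+/+, 3.77 in ASO-treated Htt+/+ and 7.68 in untreated HttQ111/+. Its annotated model was the shortest of all Kcn genes, at 705 bp, so that the window covered the whole model and no gene-body peak could be found. Kcnv1 (5.11 and 5.91) and Kcns3 (3.77 and 4.70) had peaks in ASO-treated Htt+/+ and untreated HttQ111/+, Kcns2 in untreated and ASO-treated Htt+/+ at 2.46 and 2.14, and Kcnv2 in the 2 ASO libraries at 6.77 in Htt+/+ and 3.89 in HttQ111/+. Kcnv2 was thus the only one of the 22 genes with peaks in both ASO libraries and in neither untreated library.

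The two-pore leak channels among the 22 were Kcnk2, Kcnk3 and Kcnk12, with peaks in ASO-treated Htt+/+ and untreated HttQ111/+, Kcnk6 and Kcnk18. Kcnk2, a channel opened by stretch and lipids, had fold enrichments of 3.47 and 5.12, Kcnk3, an acid-sensitive leak channel, 4.13 and 2.97, and Kcnk12 3.75 and 2.31. Kcnk6 had peaks in both untreated libraries, at 6.601 in Htt+/+ on 14 reads and 4.51 in HttQ111/+ on 12 reads, the most reads in these libraries among the 22 genes. At Kcnk18 the untreated Htt+/+ peak (4.97, 3 reads) and the ASO-treated Htt+/+ peak (3.12, 7 reads) did not overlap, so this gene had no recurring region at its start site.

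The inward rectifiers among the 22 were Kcnj8, a pore subunit of ATP-sensitive channels, and Kcnj12, a strong rectifier that holds the resting potential. Kcnj8 had fold enrichments of 7.69 in untreated Htt+/+, 7.23 in ASO-treated Htt+/+ and 5.84 in untreated HttQ111/+. Kcnj12 had 5.01, 5.55 and 9.91 in the same order, and the last was the highest fold enrichment of any Kcn peak in any library. Abcc9, which encodes a regulatory subunit of ATP-sensitive channels and lies near Kcnj8 on chromosome 6, had no start-site peak in any library. Neither Kcnj8 nor Kcnj12 had a start-site peak in ASO-treated HttQ111/+.

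**Figure D3:**
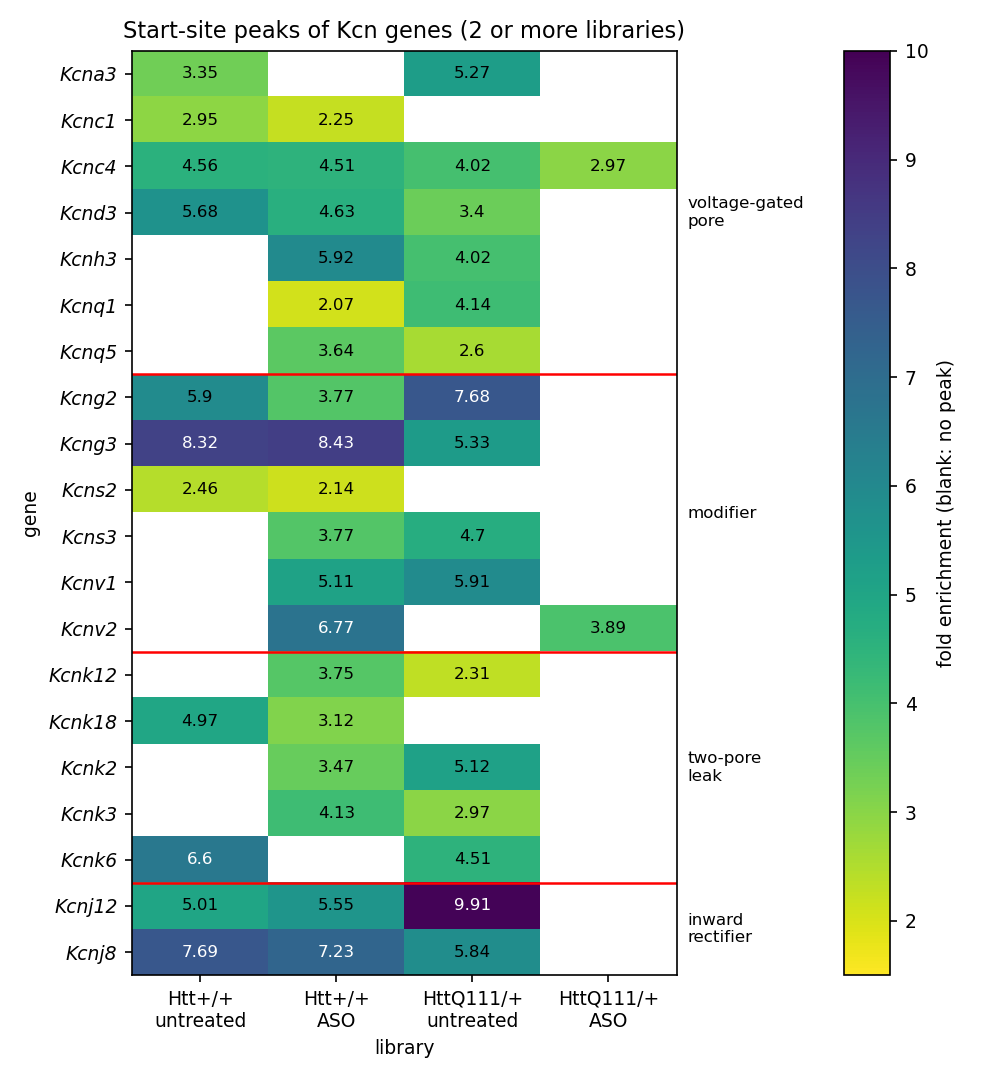
Highest fold enrichment of a start-site peak (number and colour) of 20 of the 22 Kcn genes with peaks in 2 or more libraries, by library, with red lines between classes; blank cells had no peak. The ASO-treated HttQ111/+ column holds 2 values, 2.97 at Kcnc4 and 3.89 at Kcnv2.

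A further 17 Kcn genes (18.1%, against 21.4% of all protein-coding genes) had a start-site peak in 1 library, which was untreated HttQ111/+ for 10 of them and ASO-treated Htt+/+ for 5. Body peaks without a start-site peak were found in 45 genes (47.9%, against 38.3% of all genes and a length-standardised 45.6%). No peak of either kind was found in 10 records (10.6%, against 27.5% of all genes and a length-standardised 17.4%): Kcna2, Kcna4 and Kcna5, which are short Shaker-type genes, Kcnj13, Kcnj14, Kcne4, Kcnab3, Kcnrg and the second records of Kcnb2 and Kcnh8. These names were taken after their values were seen.

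Where peaks of different libraries overlapped by at least 1 base they were merged into a recurring region. There were 63 such Kcn regions, 23 at start sites and 40 in gene bodies, of which 9 had peaks in 3 or more libraries and 1 in all 4. A recurring start-site region was present in 21 Kcn genes (22.3%, against 11.4% of all genes and a length-standardised 12.8%), and a recurring body region in 29 (30.9%, against 17.6% of all genes and a length-standardised 26.8%). The ratio to the length-standardised share was 1.75 (1.18 to 2.49) at start sites and 1.15 (0.837 to 1.52) in bodies. With GC content included the start-site share among other genes was 16.04%, inside the Kcn interval of 15.1% to 31.8%, and the ratio was 1.39. The number of regions was 32, 29 and 29 when the untreated Htt+/+, ASO-treated Htt+/+ or untreated HttQ111/+ library was left out, and 53 without ASO-treated HttQ111/+.

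The sequences of 5 of the regions with peaks in 3 libraries are given as examples of composition at start sites and in gene bodies. Each is the 300 bases around the centre of the region in mm9, written 5′ to 3′ on the strand of the gene, with CG dinucleotides in capitals. Those of Kcnj8, Kcnj12 and Kcnd3 lie at start sites, and those of Kcnh3 and Kcns1 lie in the gene body.
Kcnj8 (chr6:142519873-142520172, minus strand): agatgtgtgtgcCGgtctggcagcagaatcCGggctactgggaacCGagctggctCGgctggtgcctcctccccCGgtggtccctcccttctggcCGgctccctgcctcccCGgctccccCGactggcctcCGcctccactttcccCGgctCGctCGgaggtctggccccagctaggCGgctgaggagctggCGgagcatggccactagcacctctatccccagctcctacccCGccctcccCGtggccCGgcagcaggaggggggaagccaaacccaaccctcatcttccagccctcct
Kcnj12 (chr11:60835878-60836177, plus strand): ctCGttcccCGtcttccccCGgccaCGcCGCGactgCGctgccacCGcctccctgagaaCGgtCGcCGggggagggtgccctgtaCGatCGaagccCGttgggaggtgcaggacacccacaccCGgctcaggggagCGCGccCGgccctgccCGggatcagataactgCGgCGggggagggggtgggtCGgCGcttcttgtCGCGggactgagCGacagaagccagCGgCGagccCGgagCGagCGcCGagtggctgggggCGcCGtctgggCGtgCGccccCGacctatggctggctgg
Kcnd3 (chr3:105255186-105255485, plus strand): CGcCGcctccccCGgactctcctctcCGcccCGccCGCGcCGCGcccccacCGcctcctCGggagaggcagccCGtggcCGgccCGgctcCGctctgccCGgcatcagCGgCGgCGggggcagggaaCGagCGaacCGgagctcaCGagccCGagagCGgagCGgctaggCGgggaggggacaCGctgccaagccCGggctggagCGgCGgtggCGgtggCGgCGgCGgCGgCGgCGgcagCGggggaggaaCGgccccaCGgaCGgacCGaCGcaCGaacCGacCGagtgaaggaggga
Kcnh3 (chr15:99063871-99064170, plus strand): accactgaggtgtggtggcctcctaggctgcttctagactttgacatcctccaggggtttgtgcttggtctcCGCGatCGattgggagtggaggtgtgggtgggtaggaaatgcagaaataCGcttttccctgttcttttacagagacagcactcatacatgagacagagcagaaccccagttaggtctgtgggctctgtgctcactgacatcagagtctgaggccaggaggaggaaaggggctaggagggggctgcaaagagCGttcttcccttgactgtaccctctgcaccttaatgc
Kcns1 (chr2:163994033-163994332, minus strand): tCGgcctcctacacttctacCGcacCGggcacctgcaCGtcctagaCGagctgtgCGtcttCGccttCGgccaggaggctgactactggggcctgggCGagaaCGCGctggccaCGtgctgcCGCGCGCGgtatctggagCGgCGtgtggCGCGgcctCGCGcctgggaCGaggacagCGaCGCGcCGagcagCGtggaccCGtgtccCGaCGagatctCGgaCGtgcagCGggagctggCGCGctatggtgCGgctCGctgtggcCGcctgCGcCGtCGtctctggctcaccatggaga
The start-site windows were 70.0% (Kcnj8), 74.0% (Kcnj12) and 79.3% (Kcnd3) GC and held 17, 37 and 47 CG dinucleotides. The intronic window of Kcnh3 was 54.0% GC with 5, whereas the Kcns1 window, in a coding exon of this modifier subunit, was 70.7% GC with 42. Kcnj8 and Kcnj12 were centred upstream of the gene and Kcnd3 on an untranslated exon.

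The composition of Kcn regions was close to that of other genes' regions of the same kind. The 23 start-site regions had a median GC content of 71.4% and a median of 35 CG dinucleotides in the central 300 bases, and the 2464 start-site regions of other genes had 71.8% and 35. The 40 body regions had a median GC content of 55.5%, and the 5322 of other genes 55.1%. The motif GGGCGG, read on either strand, was in 17 of the 23 Kcn start-site windows (73.9%) and in 62.5% of those of other genes. CAGCAGCAG was in 3 (other genes 7.06%). CACGTG and TGACGTCA were in 0 of the 23, which allows a share of up to 13.0% each, and in 5.88% and 0.284% of the windows of other genes. Of the 23 start-site regions 19 were centred downstream of the start site (82.6%, other genes 83.3%), by a median over all 23 of 329 bp.

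The annotated starts of Kcn genes were themselves rich in GC. Median GC content of the 2 kb around the start was 61.2% for the 22 genes with peaks in 2 or more libraries, 56.2% for the 17 with a peak in 1, 53.5% for the 55 with none and 51.3% for all protein-coding genes. Of the 94 records 38 fell in the highest of 4 equal GC classes of all genes, and 16 of these 38 (42.1%) had a start-site peak in 2 or more libraries, against 27.6% of other genes in that class. In the next classes there were 4 of 32 and then 2 of 15, where other genes had 14.3% and 6.80%, and the lowest class held 9 Kcn records. GGGCGG was found in the 300 bases from 250 before to 50 after the start in 18 of the 22 genes (81.8%), in 47 of all 94 and in 43.8% of all protein-coding genes. GC content thus moved with the presence of start-site peaks, within Kcn genes as over all genes, and its part in the peak counts was not tested beyond the GC-standardised shares above.

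In gene bodies, outside the start-site window, 56 Kcn genes had a peak in untreated Htt+/+, 52 in ASO-treated Htt+/+, 58 in untreated HttQ111/+ and 43 in ASO-treated HttQ111/+. The shares of all protein-coding genes were 37.1%, 33.9%, 39.1% and 33.0%, and the Kcn shares, 59.6%, 55.3%, 61.7% and 45.7%, were closer to the length-standardised shares of 50.2%, 47.5%, 52.3% and 47.0%. A body peak in 2 or more libraries was found for 58 Kcn genes (61.7%, against 42.1% of all genes and a length-standardised 56.2%, ratio 1.10, 0.918 to 1.26), and one in all 4 libraries for 26 (27.7%, against 13.1% of all genes and a length-standardised 25.4%). Summed gene by gene over the libraries, the Kcn body peaks came to 611, beside 603 expected from length. A peak in 2 overlapping Kcn genes, as where Kcnmb1 lies within Kcnip1, was counted in this sum for each gene. With all peaks and GC content of the start site included, the ratio for 2 or more libraries was 1.07 (0.898 to 1.23). With peaks of 5 or more reads alone, 24 Kcn genes had a body peak in 2 or more libraries. The ratio to the length-standardised share was then 1.504 with an interval, 1.05 to 2.07, that lay above 1. At this cut no share of all genes is given and GC content was not matched, so the ratio is not read as particular to Kcn genes.

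The single region shared by all 4 libraries was in Kcnn2, a small-conductance calcium-activated channel that shapes the after-hyperpolarization. It covered a coding exon at chr18:45719168-45719970, with fold enrichments of 4.996 in untreated Htt+/+, 3.83 in ASO-treated Htt+/+, 6.16 in untreated HttQ111/+ and 4.70 in ASO-treated HttQ111/+, on 8, 7, 9 and 12 reads. At 70.9% GC this region was like the start-site regions in composition. It lay 290910 bp from the outermost annotated start of the gene. Kcnn2 has 2 annotated transcript starts, and the distance to the other was not measured. In the libraries other than ASO-treated HttQ111/+, the Kcnh3 intron region had 2.97, 8.02 and 3.47, and the Kcns1 exon region 4.76, 3.14 and 2.19.

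The next body regions by fold enrichment had peaks in 2 libraries. Those of the auxiliary subunits Kcnip1, a calcium-binding partner of Shal channels, and Kcnmb2, a partner of large-conductance calcium-activated channels, had 8.28 and 7.97, and 4.96 and 8.76, in ASO-treated Htt+/+ and untreated HttQ111/+. Kcnmb3, of the same family as Kcnmb2, had 5.57 and 5.93 in the untreated libraries, and Kcnab2, a beta subunit of Shaker channels, 6.09 in untreated Htt+/+ and 5.16 in ASO-treated HttQ111/+. Kcnj10, the main inward rectifier of astrocytes, had a coding-exon region with 5.82 and 8.06 in the untreated libraries. Intron regions were also found in Kcnd3, with 6.69 and 5.38 in the untreated libraries, and in Kcnh7, with 6.45 in ASO-treated Htt+/+ and 5.45 in untreated HttQ111/+. Reads at these summits were 3 to 6, fewer than at start sites, where the median was 7.5, 8, 7 and 4 in the 4 libraries against 3 in bodies of each. Of the 40 body regions 31 were in introns, 6 on coding exons and 3 on untranslated exons (77.5%, 15.0% and 7.50%), where other genes had 73.9%, 21.2% and 4.85%.

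Single high peaks were not always recurrent. The second highest fold enrichment of any Kcn peak, 9.68 on 7 reads, was in the body of Kcnc1, 25150 bp from its start, in ASO-treated Htt+/+ and had no partner in another library. The third place, 8.76 on 5 reads, was tied between Kcnip4, Kcnh7, Kcnh5, Kcnmb2 and Kcnq1, all in untreated HttQ111/+, since few reads allow few values of enrichment. Only the Kcnmb2 peak of these 5 overlapped a peak of another library.

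The number of body peaks differed widely between Kcn genes of the same length. The longest, Kcnip4 (1135198 bp), had 1 body peak in untreated Htt+/+, 3 in ASO-treated Htt+/+, 10 in untreated HttQ111/+ and 5 in ASO-treated HttQ111/+, and its 19 were 0.458 of the 41.5 expected from length (exact Poisson 95% interval 0.276 to 0.716). Kcnq5 had 2, 3, 3 and 4 (0.473 of expected, 0.245 to 0.827) and Kcnd2, a Shal-type A-type channel, 0, 2, 1 and 3 (0.209, 0.0766 to 0.454). Kcnma1, the large-conductance calcium-activated pore, had 9, 5, 3 and 8 (0.887, 0.574 to 1.31), and Kcnh7 2, 4, 2 and 1 (0.328, 0.150 to 0.623). All 5 longest genes were below the number expected from length, and the interval lay below 1 for 4 of them. Among 23 Kcn genes of 100 kb or longer the interval lay below 1 for 8 (34.8%) and above 1 for 6 (26.1%), and among 2258 other genes of that length for 17.9% and 13.8%. These shares were not matched for length beyond the 100 kb limit. A longer gene has a larger expected number and so a narrower interval, so the shares cannot show whether Kcn genes vary more than others. Chosen after their values were seen, the extremes were Kcnj3, a G-protein-gated inward rectifier (1 peak, 0.0839 of expected, 0.00212 to 0.467), and Kcnh1, an EAG channel (35 peaks, 1.96, 1.37 to 2.73). Kcnj3 thus stood against Kcnj6, which forms G-protein-gated channels with it and had 26 peaks (1.60, 1.04 to 2.34).

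Across these 23 genes the ratio of observed to expected body peaks rose with the GC content of the whole gene, with Spearman's rho of 0.84 and Pearson's r of 0.89. This correlation is across genes that share libraries and, by the study's methods, a merged input, and genes are not independent replicates. The 8 genes whose interval lay below 1 had at most 42.5% GC and the 6 above 1 had at least 46.0%. Over 2258 other genes of that length the same measures gave 0.76 and 0.70, so the relation was present over other genes too.

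**Figure D4:**
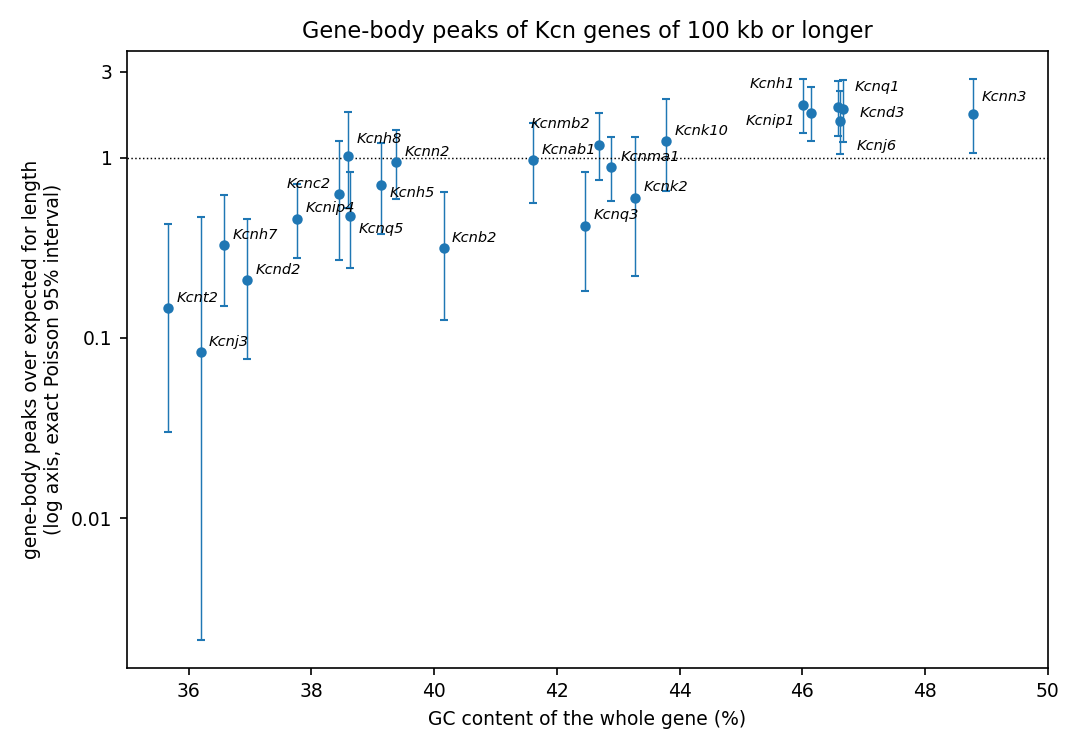
Body peaks over the 4 libraries divided by the number expected from length (log axis, exact Poisson 95% interval) against GC content of the whole gene, for the 23 Kcn genes of 100 kb or longer; the dotted line marks 1. The 8 genes whose interval lies below 1 have at most 42.5% GC, and the 6 whose interval lies above 1 have at least 46.0%.

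The comparison of ASO with untreated cortex asks which HTT peaks depend on HTT level. In Htt+/+ mice, start-site and body peaks of Kcn genes numbered 196 untreated and 168 with ASO, a ratio of 0.857 (95% counting interval 0.698 to 1.05), and over all protein-coding genes the ratio was 0.908. With peaks of 5 or more reads alone the Kcn ratio turned to 1.37 (0.903 to 2.07), and that of all genes to 1.24. At start sites the direction was the opposite of that in bodies: 14 peaks untreated and 27 with ASO, a ratio of 1.93 (1.02 to 3.64), against 182 and 141 in bodies, a ratio of 0.775 (0.622 to 0.965) where all genes gave 0.857. By gene, 3 Kcn genes had a start-site peak untreated alone, where 7.55% of all genes did, 15 with ASO alone, where 10.9% did, and 10 in both, where 5.38% did. The 3, 15 and 10 are 3.19%, 15.96% and 10.6% of the records, and with both length and GC content matched 7.62% of other genes had a peak in both. Start sites of all genes moved the same way, with a ratio of 1.24.

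In HttQ111/+ mice Kcn peaks numbered 204 untreated and 114 with ASO, a ratio of 0.559 (0.445 to 0.702), and the 0.693 of all genes lay just inside the interval. At start sites 29 peaks became 3, a ratio of 0.103 (0.0335 to 0.3196), with 0.210 over all genes, and in bodies the ratio was 0.634 (0.5003 to 0.804), with 0.789 over all genes. By gene, 27 Kcn genes had a start-site peak untreated alone (28.7%, against 17.1% of all genes), 2 with ASO alone (2.13%, against 2.59%) and 1 in both (1.06%, against 1.41%). For a peak untreated alone, the share of other genes was 18.9% with length matched and 22.7% with both length and GC content matched. The latter lay inside the Kcn interval of 20.6% to 38.6%. The fewer start-site peaks in ASO-treated HttQ111/+ were thus seen over all genes as well as in Kcn genes. The peak lists differed in other ways too. The narrowest peak was 287 bp in ASO-treated HttQ111/+ and 210 bp in untreated HttQ111/+. Peaks with 2 to 4 reads made up 87.3% and 81.1% of these lists, and both values of the ASO-treated list were the highest of the 4 libraries. Whether these differences bear on the peak numbers was not tested. With 1 library a group, condition and library cannot be told apart.

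Between genotypes, untreated Kcn peaks numbered 196 in Htt+/+ and 204 in HttQ111/+, a ratio of 1.04 (0.856 to 1.27) where all genes gave 1.15, with 14 and 29 at start sites, a ratio of 2.07 (1.11 to 3.88) where all genes gave 1.43. With ASO they numbered 168 and 114, a ratio of 0.679 (0.535 to 0.860) where all genes gave 0.877, with 27 and 3 at start sites, a ratio of 0.111 (0.0358 to 0.344) where all genes gave 0.242. The ratios share libraries with those between treatments and are not independent of them. Among peaks of 5 or more reads the untreated genotype ratio was 1.66 (1.11 to 2.47) for Kcn genes and 1.37 for all genes, inside that interval.

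**Figure D5:**
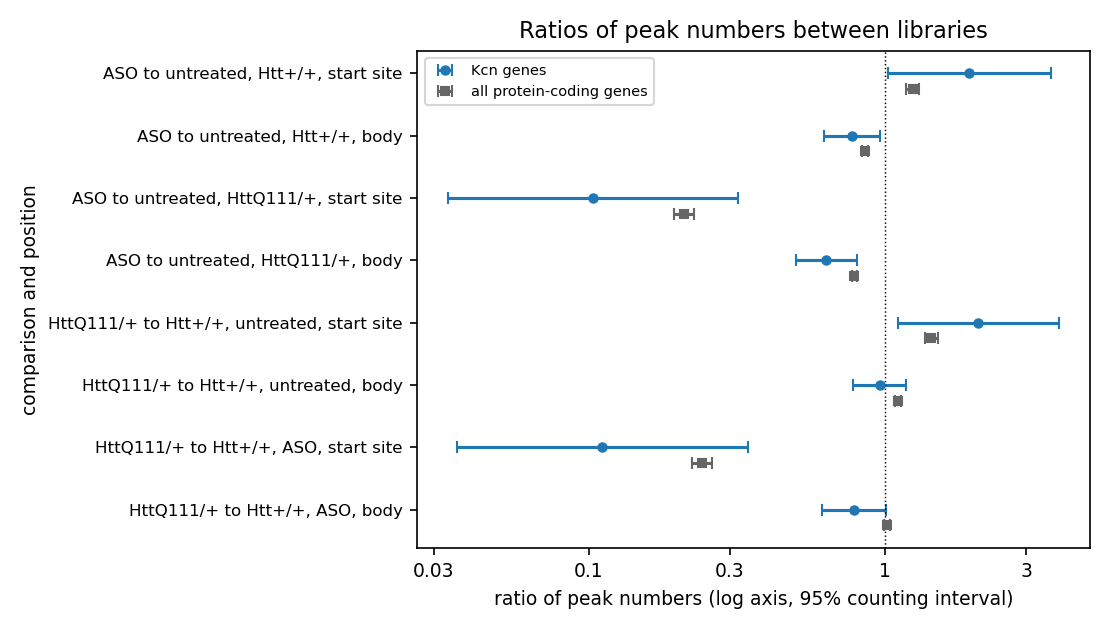
Ratio of the number of peaks between libraries (log axis, 95% counting interval) at start sites and in gene bodies, for Kcn genes (circles) and all protein-coding genes (squares); the dotted line marks 1. At start sites the ASO to untreated ratio of Kcn genes was 1.93 in Htt+/+ and 0.103 in HttQ111/+, with 1.24 and 0.210 over all genes.

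Where a region had peaks in both libraries of a pair, the heights could be set side by side. In Htt+/+, 8 Kcn start-site regions had peaks untreated and with ASO, and 5 were lower with ASO, with a median log2 difference of fold enrichment of −0.14 and a range of −0.65 to 0.15, while in other genes 47.3% of 1029 regions were lower, with a median of 0.02. In HttQ111/+ no Kcn start-site region had a peak in both libraries. Between untreated genotypes 4 of 8 Kcn start-site regions were lower in HttQ111/+, with a median of −0.01, while in other genes 39.9% of 1217 regions were lower, with a median of 0.09. With ASO 1 Kcn start-site region had a peak in both genotypes, and it was lower in HttQ111/+ by a log2 difference of −0.80.

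Genes that work with potassium channels but are named otherwise were counted from a list of 19: pacemaker channels of the Hcn family, regulatory subunits, and membrane partners. A start-site peak in 2 or more libraries was found for 3 of them, where 2.70 were expected from length, and a body peak in 2 or more libraries for 13, where 13.0 were expected. The 3 were Hcn2, a pacemaker channel, with peaks in ASO-treated Htt+/+ and untreated HttQ111/+, Amigo1, a membrane partner of Shab channels, with peaks in the same libraries, and Lrrc38, a gamma subunit of large-conductance channels, with peaks in all but ASO-treated HttQ111/+. Hcn2 had no recurring region at its start site, and Amigo1 and Lrrc38 had 1 each. Dpp6 and Dpp10, which accompany Shal channels, had no start-site peak.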

How the data were processed

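The 4 HTT ChIP libraries had 1 narrow-peak list each; groups were taken from the titles. Per the labels and the study's methods, the authors aligned reads with HISAT2, reduced the ChIP libraries to the smallest, merged the inputs and called peaks per library with MACS2. The methods name mm10 for these steps, and whether the mm9 lists used here came from the same run is not known. The pileup height of 1 read, as recovered from the lists, was 3.23 in untreated and 2.97 in ASO-treated Htt+/+. It was 3.30 in untreated and 2.67 in ASO-treated HttQ111/+. Whether the libraries were of equal depth was not tested. The deposited fold enrichment at the summit, −log10 p-value and −log10 q-value are the authors' own, and the deposited integer score is the −log10 p-value times 10, truncated, and was not used here. The labels name mm9 and the methods mm10, and the peaks lay within the mm9 chromosomes 1 to 19 and reached base 197184321 of chromosome 1, past its end in mm10, so mm9 positions were used. MACS2 keeps only peaks above its own p limit (lowest −log10 p-value 3.00), so a missing peak is not absent binding.

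A peak was assigned by its midpoint, with a start-site window of 1 kb on each side of the outermost 5′ end of each GENCODE vM1 gene. Peaks at other transcript starts of a gene therefore counted as body peaks. Overlapping peaks of a gene, by 1 base or more, were merged. Shares of other genes were averaged over length classes 0.25 wide in log10 length. Reads at a summit were recovered from fold enrichment and p-value, within 0.01 of the deposited −log10 p-value, and the script was tested on simulated data. Intervals are Wilson, or exact Poisson for single genes, at 95%, and cover counting error only. Named genes were those with start-site peaks in 2 or more libraries, 12 with recurring body regions, the 5 longest, the 3 highest single peaks and partner genes under the first rule. The values of a few genes that meet these rules are not reported here. Members and lists were chosen with earlier results of these data known. Alternatives covered q, reads, assignment, window, length classes and leaving out libraries. Scripts ran in Python 3.11.15 with pysam 0.24.0 for sequence, scipy 1.17.1 for intervals, pandas 2.3.3 and numpy 2.4.6 for tables, and matplotlib 3.10.9 for figures.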

Additional observations from a re-analysis of the deposited data

Results flagged for a closer look

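The number of Kcn start-site peaks moved in opposite directions with ASO in the 2 genotypes: the ratio of ASO-treated to untreated was 1.93 in Htt+/+ and 0.103 in HttQ111/+. Seen the other way, the ratio of HttQ111/+ to Htt+/+ was 2.07 without treatment and 0.111 with ASO. The 4 values come from the same 4 libraries. Over all protein-coding genes the ratios were 1.24, 0.210, 1.43 and 0.242, so every one had the direction seen in Kcn genes. With 1 library per group the difference was not tested.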

How the results depend on the processing

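Restricting peaks to 5 or more reads at the summit moved most values: Kcn genes with a body peak in 2 or more libraries numbered 24, recurring regions 33, the body share was 1.504 times the length-standardised share (interval 1.05 to 2.07, which lay above 1), and the ratios of Kcn peaks were 1.37 (ASO to untreated, Htt+/+), 0.429 (ASO to untreated, HttQ111/+), 1.66 (genotype, untreated) and 0.519 (genotype, ASO). The body share at 5 or more reads was not matched for GC content. Without length classes the body ratio was 1.47. A peak in 3 or more libraries left 7 start-site genes and 9 regions. Leaving out 1 library at a time gave 9 to 21 start-site genes, 49 to 54 body genes and 29 to 53 regions, as fewer libraries offer fewer pairs. The low start-site counts were those without the ASO-treated Htt+/+ library (9) and without the untreated HttQ111/+ library (11). The start-site share stayed above the length-standardised share in all alternatives run, from 1.30 with GC content to 1.84 without length classes, but the interval included 1 with GC content, with q below 0.01 (0.976 to 2.21) and with a 2 kb window (0.964 to 1.91). Of the 22 start-site genes, 18 remained with q below 0.01, 20 with 5 or more reads and 17 with a 500 bp window. When the starts of all transcripts were used, 28 Kcn genes had a start-site peak in 2 or more libraries. The ratio to the length-standardised share was then 1.39 (1.002 to 1.85). In all, 59 recomputed summary values stayed within 1.5 times the reported count or inside the reported interval, and 15 did not. The cause of these changes was not tested. No paired analysis was possible here because the peak lists hold values only where a library has a peak. The study's methods describe a model of read counts in the cortex libraries that was blocked by genotype, and no such model was fitted here. Each ratio of ASO to untreated was taken within its genotype. Most peaks rest on a few reads, which limits what any 1 peak or missing peak can show.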

Other observations

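Kcnd1 and Kcne1l, the Kcn genes of the X chromosome, were outside the comparisons above. Kcnd1, a Shal-type pore subunit, had 1 body peak in ASO-treated Htt+/+ and no other peak, and Kcne1l, an auxiliary subunit, had 1 start-site peak in untreated HttQ111/+ and no other.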
